A study of Mus musculus with 12 samples.

Results

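Embryoid bodies of mouse embryonic stem (ES) cells lacking both SUV420H1 and SUV420H2 (DKO) were compared with embryoid bodies of wild-type (WT) cells after 8 and after 12 days of differentiation. The comparison rests on 4 of the 12 RNA-seq libraries of the series, chosen by their labels: DKO day 8, DKO day 12, WT day 8 and WT day 12, with 1 library for each genotype and day. Because no genotype had more than 1 library on a day, the libraries were matched by day and the 2 days served as replicates. Embryoid bodies of cells lacking SUV420H2 alone (KO), also 1 library on each day, entered the same fit, so that 6 libraries set the spread. Undifferentiated ES cells of the same genotypes, 2 libraries of each, were used to ask whether a difference was already present before differentiation.

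All lines had been grown on gelatin without feeder cells in medium with 1.5 µM of the GSK3 inhibitor spelled CHIR9901 in the labels, a compound that stabilises beta-catenin. The labels do not say how the alleles were made, how many clones each genotype stands for, whether libraries came from separate cultures, or how differentiation was carried out. The p-values below therefore measure the spread between these libraries, which may be technical. In embryoid bodies the spread also includes any difference between genotypes in the change from day 8 to day 12. Genotype cannot be told apart from cell line.

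SUV420H1 and SUV420H2 are the enzymes that turn monomethylated lysine 20 of histone H4, made by SETD8, into its dimethylated and trimethylated forms. Trimethylated H4K20 is a mark of constitutive heterochromatin at centromeres, telomeres and repeats, and dimethylated H4K20 is spread over much of the genome and is read by replication and repair proteins. Embryoid bodies are aggregates in which ES cells leave pluripotency and form mixed cells of ectoderm, mesoderm and endoderm, so falling pluripotency transcripts and rising lineage transcripts mark their progress. In bulk RNA of such mixtures, fewer cells of a type and less RNA per cell cannot be told apart.

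Levels are given as RPKM, the authors' read number scaled for the length of the transcript and for the total reads of the library. Each pair of values is day 8 and then day 12. Fold changes and p-values are from edgeR's quasi-likelihood test on the read counts with genotype and day as terms, and a gene was called at a Benjamini-Hochberg adjusted p under 0.05 over all genes tested. A gene was tested if it reached 1 RPKM in at least 2 of the 6 embryoid body libraries. Reads in genes numbered 23421465 and 24925199 in DKO embryoid bodies and 26265751 and 26675600 in WT embryoid bodies. The 100 most abundant genes held between 14.02% and 17.24% of the reads of each embryoid body library.

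Transcripts of the targeted genes came first. Suv420h2 lies on chromosome 7 and had 8.46 and 6.56 RPKM in DKO embryoid bodies, against 33.2 and 31.4 RPKM in WT embryoid bodies. Both DKO libraries were far below both WT libraries, although the gene did not pass the test (log2 fold change -2.0, SE 0.34, adjusted p = 0.0583). Suv420h1, on chromosome 19, had 4.99 and 8.15 RPKM in the DKO libraries and 5.31 and 5.0 RPKM in the WT libraries (log2 fold change 0.40, SE 0.23, adjusted p = 0.296). Its day 8 values were close and its DKO day 12 value was the highest of the 4. Reads summed over a whole transcript do not show whether exons are missing, so the Suv420h1 counts do not check the DKO label. In ES cells before differentiation, Suv420h2 stood at 5.59 and 3.37 RPKM in DKO and 28.6 and 25.8 RPKM in WT. Of the 10 listed enzymes and readers of H4K20 methylation, 9 were tested and none was called. Setd8, the monomethyltransferase, had 26.9 and 26.3 RPKM in DKO and 22.3 and 32.7 RPKM in WT, overlapping between the groups. Phf2, a histone demethylase, had 2.20 and 5.10 RPKM in DKO and 11 and 14.6 RPKM in WT, with no overlap between the groups (log2 fold change -1.85, SE 0.28, adjusted p = 0.0544). Orc1, the origin recognition subunit that binds dimethylated H4K20, had 4.29 and 4.24 RPKM in DKO and 2.44 and 1.93 RPKM in WT (log2 fold change 1.06, SE 0.30, adjusted p = 0.103). The median log2 fold change of the 9 genes was 0.13. Genes of each list beyond the few with the smallest p were picked for the text after their values were seen.

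A further difference between the lines lay on the Y chromosome. Ddx3y and Eif2s3y, ubiquitously expressed Y-linked genes for an RNA helicase and a translation initiation factor subunit, had no reads in either DKO embryoid body library. In WT embryoid bodies Ddx3y had 4.66 and 4.41 RPKM and Eif2s3y had 10.3 and 7.82 RPKM. With 3 counts per library as the floor, Ddx3y was at least 291-fold lower and Eif2s3y at least 221-fold lower in DKO (edgeR adjusted p = 0.0438 and 0.0472). Uty, a Y-linked demethylase gene, had 1 read over both DKO libraries, a DKO to WT ratio of 0.0014 with a 95% counting interval of 3.7e-05 to 0.00822. Ddx3y was at 0 and 0 RPKM in DKO ES cells and 6.14 and 6.10 RPKM in WT ES cells, so the lines differed before differentiation. In KO embryoid bodies Ddx3y stood at 0 and 0.00467 RPKM. Xist, the noncoding RNA of X inactivation, had 0.306 and 0.160 RPKM in DKO embryoid bodies and 0.0398 and 0.0238 RPKM in WT embryoid bodies, low on both sides (log2 fold change 2.99, SE 0.72, adjusted p = 0.0824). Xist and Tsix overlap on opposite strands and strand use in counting is not given, so their reads cannot be told apart.

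Of 12896 genes tested in DKO against WT embryoid bodies, 281 were called (2.18%), with 196 higher (1.52%) and 85 lower (0.659%). The smallest adjusted p was 0.0357, and 3970 genes had an unadjusted p under 0.05. All 281 called genes were more than 2-fold apart on both days in the same direction. Over all genes tested, 31.4% had both DKO libraries above both WT libraries and 27.6% had both below, so groups without overlap were common. Of the 281 called genes, 279 had no overlap between the DKO and the WT libraries. The exceptions were Spock1, a proteoglycan gene, and Chst15, a sulfotransferase gene, both lower in DKO on each day but with a day 12 value in DKO above the day 8 value in WT. Over all genes tested, 876 were more than 2-fold higher in DKO on both days (6.79%) and 1286 more than 2-fold lower (9.97%), computed with 0.5 CPM (counts scaled to library size) added to each value. These shares, with 1.52% of genes rising and 0.659% falling, are the background for each list count below. A gene nearly absent from 1 genotype passes the filter only through libraries of the others, so each list count describes the tested genes only. The day 8 and day 12 ratios of DKO to WT correlated across genes with r = 0.717, a description in which genes are not independent replicates, and 73.1% of genes had the same sign on both days. The number of calls depended strongly on the libraries: it was 1816 without WT day 12 and 187 without WT day 8, and 0 without any 1 of the KO or DKO libraries, where edgeR still gave between 1816 and 3287 genes an unadjusted p under 0.05. With DESeq2 on the same 6 libraries 3139 genes were called.

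**Figure D1:**
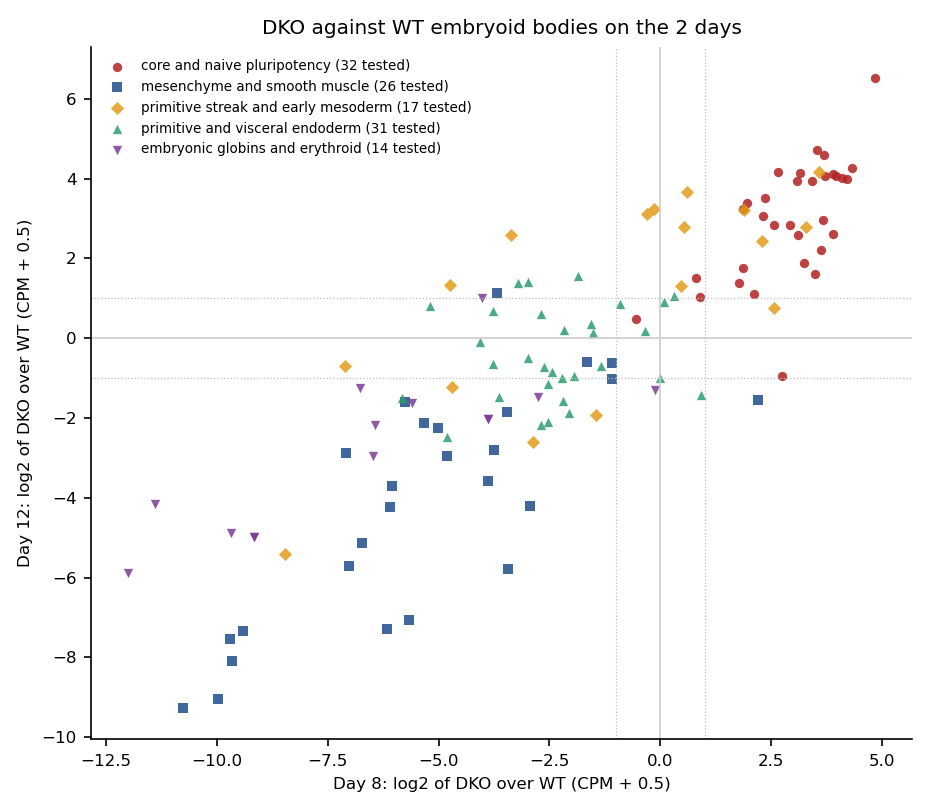
Log2 ratio of DKO to WT embryoid bodies on day 8 (horizontal axis) and day 12 (vertical axis) for the tested members of 5 gene lists, each point being 1 gene with 0.5 CPM added to its values and dotted lines at 2-fold. Pluripotency genes lie in the upper right, most mesenchyme genes in the lower left, and several primitive streak genes are high on day 12 only.

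Among the 34 gene lists examined, that of the pluripotent state held the most called genes. All 32 listed genes of core and naive pluripotency passed the filter, and 19 rose in DKO embryoid bodies while none fell, where 1.52% of all genes tested rose. On both days 28 of the 32 were more than 2-fold higher (6.79% of all genes), and the median log2 fold change was 3.05, against 0.02 over all genes tested. Summed over the list, DKO embryoid bodies held 4241 and 2704 RPKM and WT embryoid bodies 564.3 and 559.5 RPKM. KO embryoid bodies held 2980 and 1470 RPKM. DKO ES cells held 5002 and 4158 RPKM and WT ES cells 5255 and 5191 RPKM. The day 8 sum in DKO embryoid bodies lay between the 2 DKO ES cell values, and both WT embryoid body sums lay far below every ES cell value.

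Pou5f1, which encodes the core transcription factor OCT4, had 670.1 and 415 RPKM in DKO embryoid bodies and 49.7 and 24.0 RPKM in WT embryoid bodies (log2 fold change 4.02, SE 0.26, adjusted p = 0.0357). Sox2, its partner, had 477 and 272 RPKM in DKO and 51.7 and 17.1 RPKM in WT (log2 fold change 3.68, SE 0.26, adjusted p = 0.0399). For both genes the lower DKO value, that of day 12, was several times the higher WT value, that of day 8. Nanog, the remaining core factor, had 91.9 and 107 RPKM in DKO and 16.7 and 5.54 RPKM in WT (log2 fold change 3.42, SE 0.45, adjusted p = 0.0491). Nanog was as high on day 12 as on day 8 in DKO, whereas it was lower on day 12 in WT. Copies that share sequence with Pou5f1 and Nanog (Gm5712 and Nanogpd in the tables) were called with nearly the same folds, so the split of reads among copies is uncertain.

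Esrrb, an orphan nuclear receptor of naive cells, had 104 and 68.6 RPKM in DKO and 10.4 and 2.46 RPKM in WT (log2 fold change 4.12, SE 0.40, adjusted p = 0.0432). Nr0b1, a repressor of the nuclear receptor family that is among the 12 largest rises, had 83.6 and 72.5 RPKM in DKO and 3.24 and 0.614 RPKM in WT (log2 fold change 5.86, SE 0.59, adjusted p = 0.0432). In both genes the 2 groups were separated by more than the change between days within either of them. Tfcp2l1, Tbx3 and Prdm14, transcription factors that hold the naive state, rose by 2.70, 1.59 and 3.77 on the log2 scale. Tdgf1, a coreceptor of Nodal, had 256 and 114 RPKM in DKO and 14.7 and 5.59 RPKM in WT (log2 fold change 4.33, SE 0.23, adjusted p = 0.0357). Fgf4, the FGF ligand that ES cells secrete, had 95.3 and 34.1 RPKM in DKO and 6.32 and 1.97 RPKM in WT (log2 fold change 4.10, SE 0.23, adjusted p = 0.0357). Both ligand and coreceptor were lower on day 12 than on day 8 in each genotype.

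Further genes of the list that rose were Dppa2, Dppa4, Utf1, Gdf3, Tcl1, Dnmt3l, Zfp296 and Eras, with log2 fold changes between 3.05 and 4.37. Of the 13 members that did not pass, 9 were more than 2-fold higher on both days, among them Dppa5a, an RNA-binding protein gene of ES cells, with 236 and 46.4 RPKM in DKO and 35.7 and 5.98 RPKM in WT (log2 fold change 2.93, SE 0.45, adjusted p = 0.0548). Zfp42, the REX1 marker of the naive state, had 47.6 and 34.9 RPKM in DKO and 31.3 and 11.7 RPKM in WT (log2 fold change 1.18, SE 0.24, adjusted p = 0.0694). Klf4, a reprogramming factor also expressed in differentiated epithelia, was 1 of 2 members whose groups overlapped: it had 61.8 and 63.1 RPKM in DKO and 10.7 and 118 RPKM in WT, and the WT day 12 library was the highest of the 4 (log2 fold change 0.61, SE 1.03, adjusted p = 0.72). Dppa3, a marker of naive and germ cells, had 0.350 and 0.456 RPKM in DKO and 0.763 and 0.220 RPKM in WT, under 1 in each library and overlapping, while KO embryoid bodies had 18.7 and 12.6 RPKM (log2 fold change -0.01, SE 0.62, adjusted p = 0.991).

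**Figure D2:**
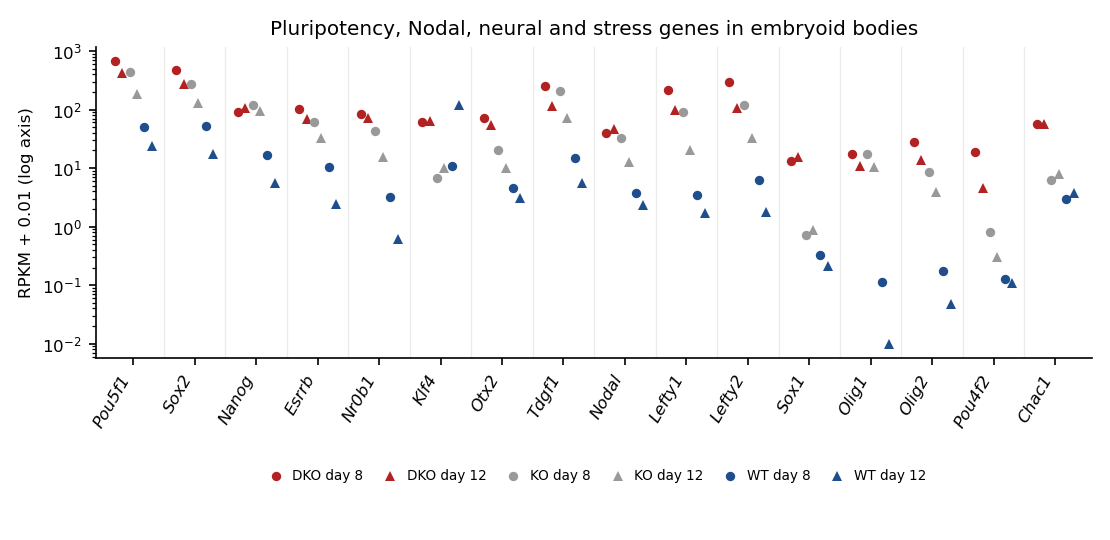
RPKM of 16 genes in each embryoid body library, with 0.01 added and a log axis; circles are day 8 and triangles day 12, and DKO is red, KO grey and WT blue. For 15 of the genes both DKO libraries lie above both WT libraries, and the exception is Klf4, whose WT day 12 library is the highest.

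Promoter windows of 2 pluripotency genes and of Spp1 are shown because these genes moved together and hold letters of a motif that OCT4 is known to bind. The windows are RefSeq sequences of the build GRCm38.p6, 250 bases before to 50 bases after an annotated start, read along the gene's own strand, and the motifs were chosen after the results were seen. Capitals mark the octamer ATGCAAAT, or a composite of the SOX element CATTGT, any base N and then ATGCAAA, searched on both strands. The last 7 letters of the composite are the first 7 of the octamer. Nanog, at chr6:122707239-122707538 on the plus strand, holds the composite on the minus strand, its leftmost base at -75 from the start.
Nanog: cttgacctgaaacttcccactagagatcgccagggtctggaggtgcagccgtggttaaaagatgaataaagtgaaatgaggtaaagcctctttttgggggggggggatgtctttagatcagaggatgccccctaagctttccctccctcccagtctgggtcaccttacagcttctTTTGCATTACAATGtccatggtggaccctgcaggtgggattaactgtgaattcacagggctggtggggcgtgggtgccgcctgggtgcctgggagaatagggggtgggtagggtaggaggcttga
Zfp296, a zinc finger gene on the pluripotency list, holds the octamer on the minus strand at -111 in the window chr7:19577037-19577336 of the plus strand.
Zfp296: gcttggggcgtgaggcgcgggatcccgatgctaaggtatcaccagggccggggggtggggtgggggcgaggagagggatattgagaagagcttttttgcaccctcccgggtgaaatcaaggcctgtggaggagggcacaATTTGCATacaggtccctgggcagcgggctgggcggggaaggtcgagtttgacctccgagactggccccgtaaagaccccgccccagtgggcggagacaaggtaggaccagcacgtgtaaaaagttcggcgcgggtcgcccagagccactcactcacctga
Spp1, which encodes the secreted phosphoprotein osteopontin, had 90.5 and 86.7 RPKM in DKO and 4.10 and 7.87 RPKM in WT (log2 fold change 3.98, SE 0.48, adjusted p = 0.0472). It was chosen after its values were seen and holds the octamer on the plus strand at -210 in the window chr5:104435942-104436241 of the plus strand.
Spp1: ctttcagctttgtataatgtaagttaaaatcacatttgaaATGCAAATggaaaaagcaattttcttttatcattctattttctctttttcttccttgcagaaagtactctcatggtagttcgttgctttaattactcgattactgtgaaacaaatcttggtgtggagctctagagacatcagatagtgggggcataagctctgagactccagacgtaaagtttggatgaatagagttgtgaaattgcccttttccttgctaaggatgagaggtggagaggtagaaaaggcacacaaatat
The octamer was present in 9 of the 146 genes that rose and had a promoter in the table (6.16%), in 1 of the 64 such genes that fell (1.56%) and in 532 of all 27025 genes with a promoter (1.97%). The last share includes genes that were not tested here, and a share among tested genes was not computed. The composite was present in 1 gene of the 27025, Nanog (0.0037%). A match describes the letters of a window and does not show a bound site.

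Genes of the primed epiblast, the later pluripotent state, were mixed. All 16 listed genes were tested, of which 3 rose, none fell and 6 were more than 2-fold higher on both days. Otx2, the factor that marks exit from naive pluripotency, had 72.9 and 53.5 RPKM in DKO and 4.64 and 3.01 RPKM in WT (log2 fold change 4.15, SE 0.26, adjusted p = 0.0357). Foxd3, a forkhead repressor of early epiblast and neural crest, had 56.9 and 29.8 RPKM in DKO and 3.85 and 1.23 RPKM in WT (log2 fold change 4.34, SE 0.26, adjusted p = 0.0357). For both genes every DKO value was several times the highest WT value. Zic5, a zinc finger factor, rose as well (log2 fold change 3.06, SE 0.31, adjusted p = 0.0432), and its relative Zic2 had 31.5 and 80.6 RPKM in DKO and 4.90 and 7.50 RPKM in WT (log2 fold change 3.19, SE 0.54, adjusted p = 0.0582). Fgf5, the usual marker of the primed state, had 2.83 and 23.6 RPKM in DKO and 0.374 and 0.791 RPKM in WT, with most of its signal in the DKO day 12 library (log2 fold change 4.26, SE 1.05, adjusted p = 0.0852).

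Nodal signalling, which keeps epiblast cells pluripotent and later induces mesendoderm, had some of the largest rises. Lefty1, a secreted Nodal inhibitor, had 212 and 97.9 RPKM in DKO embryoid bodies and 3.39 and 1.68 RPKM in WT embryoid bodies (log2 fold change 5.99, SE 0.46, adjusted p = 0.043). Lefty2, its neighbour and paralogue, had 291 and 106 RPKM in DKO and 6.21 and 1.80 RPKM in WT (log2 fold change 5.81, SE 0.25, adjusted p = 0.0357). Each was more than 10 times higher in the lower DKO library than in the higher WT library. Nodal, the ligand, had 39.6 and 45.7 RPKM in DKO and 3.73 and 2.35 RPKM in WT, and stayed level between the days in DKO (log2 fold change 3.97, SE 0.44, adjusted p = 0.045). Lefty1 and Lefty2 are similar in sequence, so reads mapping to both may have been split in a way the files do not show.

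Of the 20 tested genes among 22 listed for BMP, Nodal and TGF-beta signalling, these 3 rose and none fell, while 5 were more than 2-fold higher and 7 more than 2-fold lower on both days. The ligand genes Tgfb1, Tgfb2 and Tgfb3 were all on the low side on both days. Tgfb1 had 2.35 and 5.61 RPKM in DKO and 79.8 and 33.5 RPKM in WT (log2 fold change -3.91, SE 0.74, adjusted p = 0.0613). Smad6, an inhibitor induced by BMP signals, had 3.81 and 11.5 RPKM in DKO and 60.6 and 55.3 RPKM in WT (log2 fold change -3.07, SE 0.43, adjusted p = 0.0516). Noggin, the secreted BMP antagonist encoded by Nog, had 1.24 and 6.14 RPKM in DKO and 5.80 and 36.0 RPKM in WT (log2 fold change -2.35, SE 0.50, adjusted p = 0.0724). In these 3 genes the DKO value was below the WT value of the same day, and only for Nog did the day 12 DKO library reach the range of WT.

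Several neural transcription factors were present in DKO embryoid bodies and nearly absent from WT. Olig2, a factor of motor neuron and oligodendrocyte progenitors, had 27.5 and 13.8 RPKM in DKO and 0.165 and 0.0369 RPKM in WT (log2 fold change 7.91, SE 0.37, adjusted p = 0.0357). Its neighbour Olig1 had 17.6 and 10.6 RPKM in DKO and 0.103 and 0 RPKM in WT (log2 fold change 8.38, SE 0.86, adjusted p = 0.0432). The KO libraries also held both genes, with 8.72 and 3.91 RPKM of Olig2 and 17.7 and 10.3 RPKM of Olig1. Sox1, an early factor of the neural plate, had 12.9 and 15.4 RPKM in DKO and 0.320 and 0.200 RPKM in WT (log2 fold change 5.86, SE 0.34, adjusted p = 0.0357), with 0.703 and 0.859 RPKM in KO. Pou4f2, a factor of retinal ganglion cells, had 19 and 4.62 RPKM in DKO and 0.118 and 0.0980 RPKM in WT (log2 fold change 6.55, SE 0.65, adjusted p = 0.0432). These 4 genes are among the 12 largest rises, a ranking that took only genes whose groups did not overlap. Before differentiation, DKO ES cells already held 64.4 and 54.4 RPKM of Sox1, against 2.85 and 2.91 RPKM in WT ES cells. Olig1 had 6.45 and 4.83 RPKM in DKO ES cells and 0.390 and 0.319 RPKM in WT ES cells. Pou4f2 had 19.6 and 13.6 RPKM in DKO ES cells and 11.1 and 12.3 RPKM in WT ES cells. Olig1 rested on 10 reads in WT day 8 and none in WT day 12, so its fold is uncertain.

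The remaining neural markers did not move together. Of 26 listed genes of neural progenitors, 14 passed the filter and 4 rose: Olig1, Olig2, Sox1 and Gbx2, a factor of the hindbrain boundary that is also present in ES cells (log2 fold change 2.41, SE 0.25, adjusted p = 0.0432). A gene nearly absent from WT passes that filter only through the libraries where it is high, so these counts describe the tested genes only. Pax6, the main factor of cortical and spinal progenitors, had 0.160 and 0.118 RPKM in DKO and 0.0846 and 0.0711 RPKM in WT and was not tested. Nes, the intermediate filament of neural stem cells, had 4.28 and 8.79 RPKM in DKO and 10.5 and 7.77 RPKM in WT (log2 fold change -0.50, SE 0.35, adjusted p = 0.376). Of 24 listed neuronal genes 12 were tested, 1 rose and 6 were more than 2-fold higher on both days. The one that rose was Ina, which encodes the neurofilament subunit alpha-internexin, with 18.2 and 14.6 RPKM in DKO and 1.93 and 1.69 RPKM in WT (log2 fold change 3.24, SE 0.41, adjusted p = 0.0472). Chga, a granin of secretory granules, had 5.55 and 4.18 RPKM in DKO and 0.710 and 0.836 RPKM in WT (log2 fold change 2.71, SE 0.44, adjusted p = 0.0566). Stmn2, a microtubule regulator of growing axons, had 20.6 and 25.2 RPKM in DKO and 2.86 and 0.767 RPKM in WT (log2 fold change 3.94, SE 0.58, adjusted p = 0.0533). Of 14 neural crest genes 11 were tested, none was called, 1 was more than 2-fold higher and 5 more than 2-fold lower on both days. Snai2, the SLUG repressor of migrating crest and mesenchyme, had 0.164 and 0.336 RPKM in DKO and 17.1 and 9.28 RPKM in WT (log2 fold change -5.81, SE 0.85, adjusted p = 0.0533). Sox10, a crest and glial factor, had 1.54 and 0.765 RPKM in DKO and 0.328 and 0.0994 RPKM in WT (log2 fold change 2.63, SE 0.50, adjusted p = 0.0613).

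The primitive streak, the site where mesoderm and endoderm arise, gave a pattern that differed by day. Of 18 listed genes 17 were tested, with 1 rise (Nodal) and 1 fall (Snai1). The median log2 ratio of the tested genes was -0.14 on day 8 and 2.44 on day 12. T, the brachyury factor of the streak, had 0.108 and 25.8 RPKM in DKO and 0.152 and 2.54 RPKM in WT (log2 fold change 2.52, SE 1.68, adjusted p = 0.359). Eomes, a T-box factor of mesendoderm, had 6.76 and 42.0 RPKM in DKO and 0.732 and 5.87 RPKM in WT (log2 fold change 3.01, SE 0.75, adjusted p = 0.0858). Fgf8, a streak ligand, had 0.699 and 28.4 RPKM in DKO and 1.06 and 3.0 RPKM in WT (log2 fold change 2.12, SE 1.35, adjusted p = 0.341). In these 3 genes the DKO day 12 library was the highest of the 4, and for T and Fgf8 neither the DKO nor the WT day 8 library exceeded 1.06 RPKM. KO embryoid bodies had 12.6 and 13.6 RPKM of Fgf8, level between the days. Lhx1, a LIM factor of the streak and node, had 1.77 and 16.9 RPKM in DKO and 0.478 and 1.68 RPKM in WT (log2 fold change 2.81, SE 0.63, adjusted p = 0.076). With 1 library per genotype and day, the difference between days has no test.

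Some genes of mesoderm that has left the streak were lower, and others rose. Snai1, the repressor of E-cadherin that acts in epithelial-mesenchymal transition, had 3.02 and 10.5 RPKM in DKO and 26.8 and 62.8 RPKM in WT (log2 fold change -2.76, SE 0.29, adjusted p = 0.0432). Hand1, a factor of lateral mesoderm and extraembryonic mesoderm, had 0.488 and 2.51 RPKM in DKO and 256 and 111 RPKM in WT (log2 fold change -7.14, SE 1.01, adjusted p = 0.0523). Pdgfra, the receptor of paraxial and lateral mesoderm, had 0.641 and 12.8 RPKM in DKO and 20.5 and 29.2 RPKM in WT (log2 fold change -2.92, SE 0.95, adjusted p = 0.127). In these 3 genes every DKO library was below every WT library. In the paraxial list 9 of 15 genes were tested and 2 rose, Tcf15 and Dll3, while 4 were more than 2-fold lower on both days. Tcf15, a factor of somites that ES cells also express, had 269 and 39 RPKM in DKO and 10.9 and 4.64 RPKM in WT (log2 fold change 3.95, SE 0.52, adjusted p = 0.0491). Dll3, a divergent Notch ligand of somite formation, had 2.89 and 5.47 RPKM in DKO and 0.340 and 0.478 RPKM in WT (log2 fold change 3.39, SE 0.45, adjusted p = 0.0491). Foxc1, a forkhead factor of somites and mesenchyme, had 0.348 and 1.35 RPKM in DKO and 5.46 and 5.83 RPKM in WT (log2 fold change -3.11, SE 0.73, adjusted p = 0.0791). Tbx6, the T-box factor of presomitic mesoderm, had 0.424 and 0.585 RPKM in DKO and 1.43 and 1.85 RPKM in WT (log2 fold change -1.62, SE 0.46, adjusted p = 0.102). The groups did not overlap for any of these 4 genes.

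**Figure D3:**
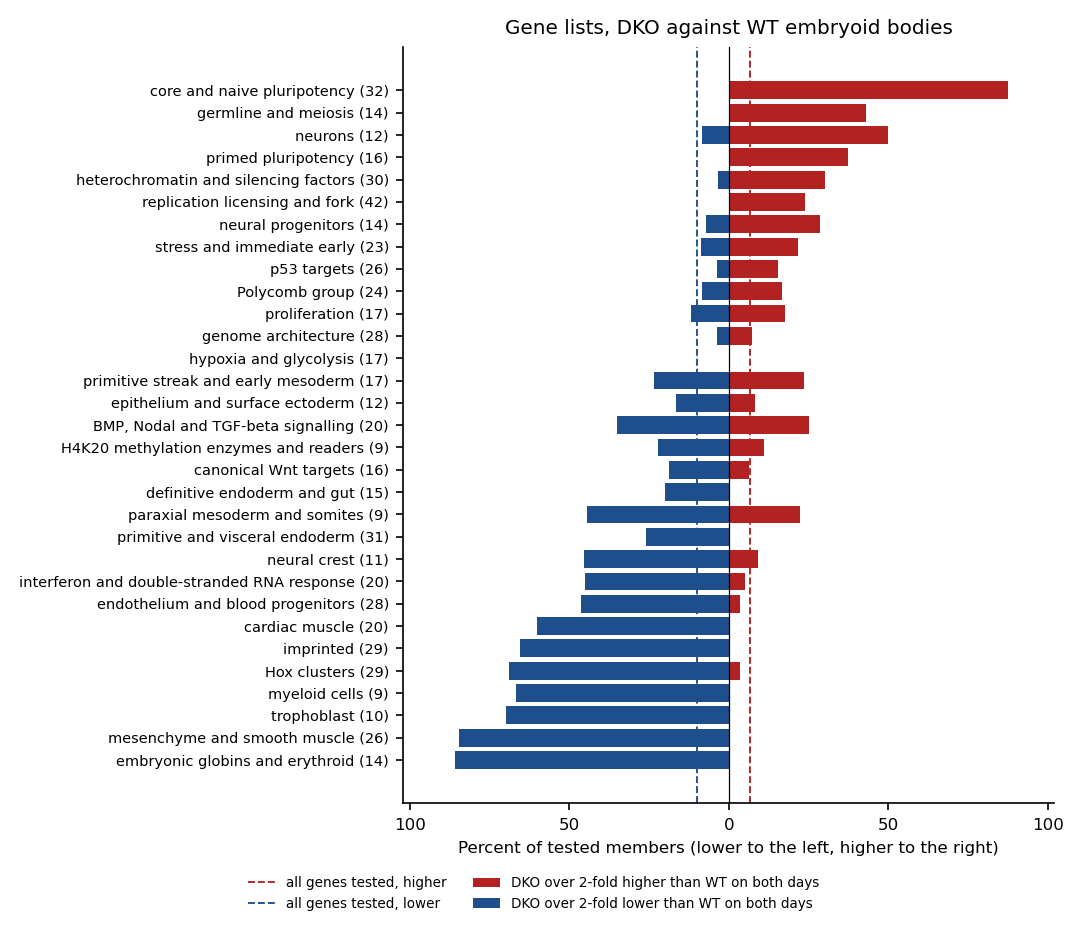
Percent of the tested members of each list with at least 8 tested genes that were more than 2-fold higher (red, to the right) or lower (blue, to the left) in DKO than in WT embryoid bodies on both days, with the number tested in brackets. Dashed lines mark the shares over all genes tested, 6.79% higher and 9.97% lower.

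Mesenchyme and smooth muscle genes were mostly low in DKO. Of 29 listed genes 26 were tested, and 22 were more than 2-fold lower in DKO on both days, where 9.97% of all genes tested were. Only 3 passed the test as falls, Col1a1, Col6a1 and Twist2, and none rose (0.659% of all genes fell). The median log2 fold change of the tested genes was -4.66. Summed over the list, DKO embryoid bodies held 141.8 and 192.2 RPKM, WT embryoid bodies 1830 and 1157 RPKM, and KO embryoid bodies 260.6 and 871.8 RPKM.

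Col1a1, the main chain of fibrillar collagen I, had 0.0892 and 0.159 RPKM in DKO embryoid bodies and 167 and 114 RPKM in WT embryoid bodies (log2 fold change -10.29, SE 1.22, adjusted p = 0.0472). These are 19 and 32 reads in DKO and 35226 and 23922 reads in WT. Col6a1, a chain of collagen VI, had 0.0665 and 0.117 RPKM in DKO and 10.7 and 28.9 RPKM in WT (log2 fold change -7.62, SE 1.03, adjusted p = 0.0498), and its neighbour Col6a2 had 0.142 and 0.369 RPKM in DKO and 9.95 and 30.9 RPKM in WT (log2 fold change -6.18, SE 0.54, adjusted p = 0.043). All 3 collagen genes were under 1 RPKM in each DKO library and far above it in each WT library. Twist2, a mesenchymal transcription factor, had 0.487 and 0.622 RPKM in DKO and 103 and 42.9 RPKM in WT (log2 fold change -6.96, SE 0.84, adjusted p = 0.0472). Acta2, smooth muscle actin, had 0.0248 and 0.131 RPKM in DKO and 132 and 46.6 RPKM in WT but did not pass the test (log2 fold change -11, SE 2.34, adjusted p = 0.0722). Vim, the intermediate filament vimentin, had 10.7 and 87.3 RPKM in DKO and 507 and 369 RPKM in WT (log2 fold change -3.84, SE 0.91, adjusted p = 0.0804). Tagln, the smooth muscle protein transgelin, had 0.737 and 6.19 RPKM in DKO and 29.1 and 47.6 RPKM in WT (log2 fold change -4.00, SE 0.59, adjusted p = 0.0533). Vim and Tagln were higher in DKO on day 12 than on day 8, yet both stayed below WT. KO embryoid bodies had 4.04 and 32.7 RPKM of Col1a1 and 1.78 and 63.1 RPKM of Acta2. The KO day 12 library lay within the WT range for Acta2 and below it for Col1a1.

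The cardiac list followed in the same direction without a call. Of 32 genes 20 were tested, none rose or fell, and 12 were more than 2-fold lower in DKO on both days (9.97% of all genes). Hand2, a factor of heart and limb mesoderm, had 0.138 and 0.334 RPKM in DKO and 186 and 61.7 RPKM in WT (log2 fold change -9.24, SE 1.43, adjusted p = 0.0548). Isl1, a factor of second heart field and motor neurons, had 0.0960 and 0.139 RPKM in DKO and 3.42 and 1.20 RPKM in WT (log2 fold change -4.24, SE 0.91, adjusted p = 0.0724). Both DKO libraries were under 1 RPKM for both genes. Sarcomere genes were low in WT as well. Myl4, an atrial myosin light chain, had 0.150 and 0.158 RPKM in DKO and 2.40 and 4.63 RPKM in WT (log2 fold change -4.28, SE 1.02, adjusted p = 0.0804). Tnnt2, cardiac troponin T, had 2 reads over both DKO libraries and 2.48 and 0.232 RPKM in WT, a DKO to WT ratio of 0.0163 with a 95% counting interval of 0.00187 to 0.0559. Nkx2-5, the cardiac progenitor factor, had 3.54 and 1.84 RPKM in DKO and 6.23 and 4.60 RPKM in WT (log2 fold change -0.92, SE 0.52, adjusted p = 0.287). Of 18 skeletal muscle genes 4 were tested, none was called and 2 were more than 2-fold lower on both days. Des, the muscle intermediate filament desmin, had 11.3 and 5.46 RPKM in DKO and 48.2 and 33.7 RPKM in WT (log2 fold change -2.12, SE 1.17, adjusted p = 0.283).

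Blood and vessel genes were far lower in DKO on day 8 and less so on day 12. The median log2 ratio of DKO to WT was -6.45 on day 8 and -2.10 on day 12 for erythroid genes, and -3.73 and -0.95 for endothelium. Of 20 erythroid genes 14 were tested, none was called, and 12 were more than 2-fold lower in DKO on both days (9.97% of all genes). The embryonic globins Hba-x, Hbb-bh1 and Hbb-y had no reads in either DKO library. In WT, Hba-x had 2003 and 27.9 RPKM, Hbb-bh1 1300.2 and 8.03 RPKM and Hbb-y 392 and 13.3 RPKM. They were therefore at least 8340-fold, 5460-fold and 1720-fold lower in DKO at a floor of 3 counts per library. Most of the WT signal was in the day 8 library, and the adjusted p-values were 0.124 for Hba-x, 0.132 for Hbb-bh1 and 0.128 for Hbb-y. Hba-a1, an alpha-globin gene with a near-identical copy, Hba-a2, had 0.749 and 0.876 RPKM in DKO and 799 and 43.1 RPKM in WT. Nfe2, an erythroid and platelet factor, had 0.159 and 0.112 RPKM in DKO and 32.1 and 1.99 RPKM in WT (log2 fold change -6.35, SE 1.47, adjusted p = 0.0789). KO embryoid bodies had 21.0 and 141 RPKM of Hba-x, with day 12 the higher, the reverse of WT.

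All 28 listed endothelial and blood progenitor genes were tested and none was called. On both days 13 were more than 2-fold lower (9.97% of all genes) and 1 (Myb) more than 2-fold higher (6.79% of all genes). Cdh5, the cadherin of endothelial junctions, had 0.0442 and 0.456 RPKM in DKO and 42.8 and 5.92 RPKM in WT (log2 fold change -7.05, SE 1.84, adjusted p = 0.0914). Itga2b, the integrin CD41 of first blood progenitors, had 0.0898 and 0.0814 RPKM in DKO and 32.7 and 5.63 RPKM in WT (log2 fold change -7.56, SE 1.35, adjusted p = 0.0599). Tal1, a master factor of blood, had 0.811 and 0.409 RPKM in DKO and 22.3 and 1.78 RPKM in WT (log2 fold change -3.70, SE 1.01, adjusted p = 0.0971). All WT values exceeded all DKO values in these 3 genes, and each was higher on day 8 than on day 12 in WT. Flt1, a VEGF receptor, had 1.76 and 4.27 RPKM in DKO and 6.37 and 25.5 RPKM in WT and was the higher on day 12 in both (log2 fold change -2.17, SE 0.36, adjusted p = 0.0575). Pecam1, which ES cells also express, overlapped between the groups with 14.8 and 7.03 RPKM in DKO and 29.8 and 4.86 RPKM in WT. Of 15 myeloid genes 9 were tested, none was called and 6 were more than 2-fold lower on both days. Cx3cr1, the fractalkine receptor of macrophages, had no reads in DKO and 1.84 and 3.95 RPKM in WT, at least 150-fold lower. Fcer1g, a signalling chain of Fc receptors, had 0.402 and 0.177 RPKM in DKO and 8.43 and 8.03 RPKM in WT (log2 fold change -4.60, SE 1.57, adjusted p = 0.138). Tyrobp, its relative in myeloid cells, had 3 reads over both DKO libraries, a DKO to WT ratio of 0.0166 with a 95% counting interval of 0.00325 to 0.0461.

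**Figure D4:**
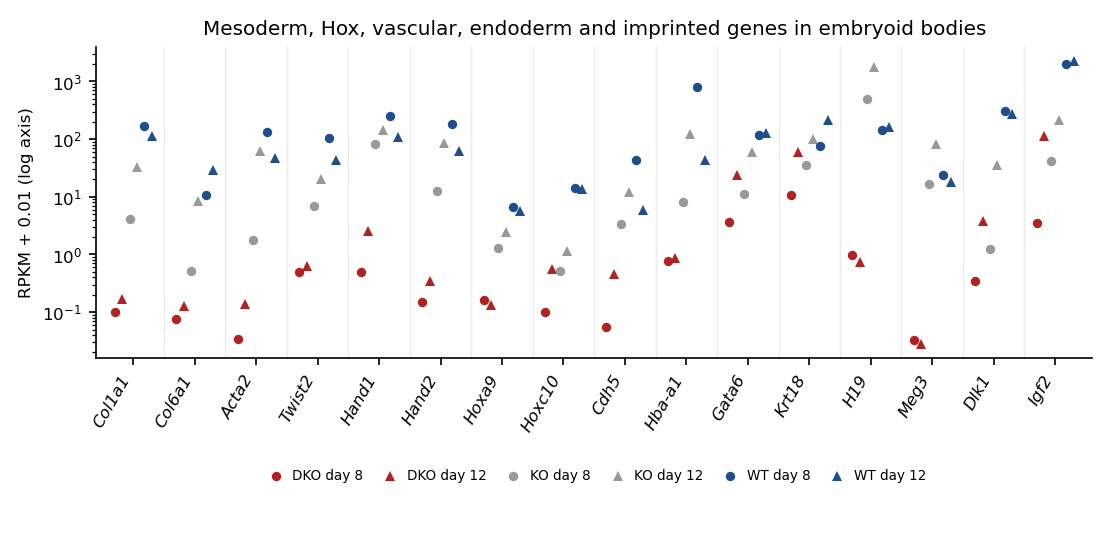
RPKM of 16 lineage, Hox and imprinted genes in each embryoid body library, with 0.01 added and a log axis; circles are day 8 and triangles day 12, and DKO is red, KO grey and WT blue. Both DKO libraries lie below both WT libraries for each gene, and both KO libraries lie above the DKO library of the same day in each.

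Transcripts of primitive and visceral endoderm, the extraembryonic endoderm of the yolk sac, were found in both genotypes. Summed over the list, DKO embryoid bodies held 1228 and 4906 RPKM and WT embryoid bodies 2782 and 6413 RPKM. Apoe alone made up 1051 and 3172 RPKM of the DKO sums and 1552 and 2707 RPKM of the WT sums. The sums therefore say little about the other members. Before differentiation, DKO ES cells already held 4066 and 2995 RPKM and WT ES cells 873 and 852.9 RPKM. Of 33 listed genes 31 were tested, none was called and 8 were more than 2-fold lower on both days. Gata6, a factor that specifies primitive endoderm, had 3.58 and 24.1 RPKM in DKO and 119.8 and 130.4 RPKM in WT (log2 fold change -3.79, SE 0.72, adjusted p = 0.0611). Sox17, a factor of primitive and definitive endoderm, had 2.73 and 95.8 RPKM in DKO and 40.4 and 259 RPKM in WT (log2 fold change -2.27, SE 0.89, adjusted p = 0.174). Sparc, a matrix protein of parietal endoderm, had 76.1 and 369.6 RPKM in DKO and 402 and 1072 RPKM in WT (log2 fold change -1.88, SE 0.27, adjusted p = 0.0523). In these 3 genes the day 12 DKO library was several times the day 8 DKO library, and for Sox17 it passed the day 8 WT library. Lama1, a basement membrane laminin, had 1.57 and 26.3 RPKM in DKO and 7.63 and 93.8 RPKM in WT (log2 fold change -1.96, SE 0.33, adjusted p = 0.0575). Col4a2, a basement membrane collagen, had 8.71 and 110.1 RPKM in DKO and 65.7 and 481 RPKM in WT (log2 fold change -2.40, SE 0.42, adjusted p = 0.0596). Apoe, an apolipoprotein of the yolk sac, had 1051 and 3172 RPKM in DKO and 1552 and 2707 RPKM in WT (log2 fold change -0.06, SE 0.34, adjusted p = 0.923). Amn, which encodes the endocytic receptor subunit amnionless, had 4.62 and 44.1 RPKM in DKO and 10.1 and 23.6 RPKM in WT (log2 fold change 0.20, SE 0.80, adjusted p = 0.888). Apoe and Amn overlapped between the groups. The list's median log2 ratio was -2.43 on day 8 and -0.64 on day 12.

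Epithelial keratins were lower in DKO. Krt18, a keratin of simple epithelia, had 10.8 and 59.1 RPKM in DKO and 76.4 and 219 RPKM in WT (log2 fold change -2.25, SE 0.28, adjusted p = 0.0472). Krt19 had 8.65 and 20.1 RPKM in DKO and 72.1 and 171 RPKM in WT (log2 fold change -2.98, SE 0.24, adjusted p = 0.043). Every DKO value of both keratins was under every WT value. E-cadherin, encoded by Cdh1, which ES cells share with epithelia, had 57.3 and 61.8 RPKM in DKO and 23.6 and 69.7 RPKM in WT (log2 fold change 0.51, SE 0.57, adjusted p = 0.578). Krt18 was the 1 call among 12 tested of 16 epithelial genes, and Krt19 the 1 call among 15 tested of 20 gut genes. Shh, the hedgehog ligand of gut and notochord, had 0.0744 and 0.114 RPKM in DKO and 1.04 and 1.40 RPKM in WT (log2 fold change -3.64, SE 0.79, adjusted p = 0.073). Of 19 trophoblast genes 10 were tested, none was called and 7 were more than 2-fold lower on both days. Gata2, a factor of trophoblast and blood, had 1.78 and 2.14 RPKM in DKO and 12.8 and 63.7 RPKM in WT (log2 fold change -3.89, SE 0.69, adjusted p = 0.0599). Rhox6, a homeobox gene of placenta and germ cells, had 0.229 and 0.863 RPKM in DKO and 9.61 and 116 RPKM in WT (log2 fold change -6.46, SE 1.30, adjusted p = 0.0666).

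Hox genes, which mark position along the body axis and are switched on in order as embryos elongate, were low in DKO. Of 39 genes of the 4 clusters 29 were tested, 2 fell (0.659% of all genes) and none rose. On both days 20 were more than 2-fold lower (9.97% of all genes) while 1 (Hoxc13) was higher (6.79% of all genes). Some members, such as Hoxd10, passed the filter only through WT, so these counts describe the tested genes only. Hoxa9 had 0.155 and 0.123 RPKM in DKO and 6.53 and 5.58 RPKM in WT (log2 fold change -5.33, SE 0.54, adjusted p = 0.0432). Hoxc10 had 0.0922 and 0.549 RPKM in DKO and 13.9 and 13.4 RPKM in WT (log2 fold change -5.71, SE 0.71, adjusted p = 0.0472). Both genes belong to the posterior part of their clusters and stayed under 1 RPKM in each DKO library. Hoxa13 had 0.202 and 0.196 RPKM in DKO and 19 and 6.22 RPKM in WT (log2 fold change -5.89, SE 1.19, adjusted p = 0.0674), and Hoxd10 had 0.0246 and 0.0522 RPKM in DKO and 1.91 and 1.24 RPKM in WT (log2 fold change -5.32, SE 0.81, adjusted p = 0.0548). In embryoid bodies the 39 genes summed to 15.31 and 28.41 RPKM in DKO and 168.6 and 94.97 RPKM in WT. In ES cells, where levels were low, the order was the other way, with sums of 35.95 and 30.89 RPKM in DKO and 4.64 and 4.385 RPKM in WT. The difference between the 2 states was called for 24 members, where 42% of all genes tested for it were called, 21.1% higher and 20.8% lower. Hoxa9 itself had 0.403 and 0.327 RPKM in DKO ES cells and 0 and 0.0185 RPKM in WT ES cells and was not tested there.

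Imprinted genes, expressed from 1 parental allele and often growth-controlling, held 5 of the 85 falls. Of 32 listed genes 29 were tested, 5 fell (0.659% of all genes tested), none rose and 19 were more than 2-fold lower on both days (9.97% of all genes). The median log2 fold change was -2.81. H19, a noncoding RNA expressed from the maternal allele, had 0.986 and 0.722 RPKM in DKO embryoid bodies and 141 and 166 RPKM in WT embryoid bodies (log2 fold change -7.32, SE 0.78, adjusted p = 0.0432). KO embryoid bodies had 505 and 1785 RPKM, above both WT libraries, and H19 is the host of Mir675. Igf2, the fetal growth factor beside H19, had 3.47 and 115 RPKM in DKO and 2044 and 2253 RPKM in WT (log2 fold change -6.56, SE 1.44, adjusted p = 0.0745). The 2 DKO libraries were far apart for Igf2 and both were far below WT.

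In the Dlk1-Meg3 cluster on chromosome 12, noncoding and coding transcripts were both low. Meg3 had 0.0232 and 0.0184 RPKM in DKO and 24.1 and 18.4 RPKM in WT (log2 fold change -9.93, SE 1.05, adjusted p = 0.0432), or 12 and 9 reads against 12340 and 9345 reads. Rian, a noncoding RNA of the same maternal allele, had 0.0370 and 0.0261 RPKM in DKO and 19.6 and 7.04 RPKM in WT (log2 fold change -8.56, SE 1.07, adjusted p = 0.0472). Dlk1, a Notch-like protein gene of the paternal allele, had 0.344 and 3.84 RPKM in DKO and 306 and 275 RPKM in WT (log2 fold change -8.46, SE 1.59, adjusted p = 0.061). No DKO library came near a WT library for these genes. KO embryoid bodies had 16.4 and 83.4 RPKM of Meg3 and 25.8 and 79.1 RPKM of Rian. Already in ES cells Meg3 was at 0.0653 and 0.0487 RPKM in DKO and 1.84 and 2.07 RPKM in WT (log2 fold change -5.10, SE 0.19, adjusted p = 2.3e-09).

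Zim1, an imprinted zinc finger gene of the Peg3 cluster, had 0 and 0.0333 RPKM in DKO and 10.7 and 10.4 RPKM in WT (log2 fold change -9.37, SE 0.93, adjusted p = 0.0432), with 5 reads in all in DKO. Slc22a3, an organic cation transporter of the Igf2r cluster, had no reads in DKO and 1.16 and 1.59 RPKM in WT, at least 66.6-fold lower (edgeR adjusted p = 0.0472). Cdkn1c, an inhibitor of cyclin-dependent kinases, had 37.4 and 27.8 RPKM in DKO and 200.2 and 316 RPKM in WT (log2 fold change -2.81, SE 0.47, adjusted p = 0.0575), and KO embryoid bodies had 5.81 and 11.8 RPKM. Mest, a mesodermal imprinted gene, had 13.3 and 15.9 RPKM in DKO and 247 and 73.5 RPKM in WT (log2 fold change -3.33, SE 0.81, adjusted p = 0.0832). Mesenchyme sums were also lower in DKO than in WT, and their part in the imprinted values was not tested. In KO embryoid bodies the imprinted genes differed in order, with H19 above WT, Cdkn1c below DKO, and Zim1 at 0.126 and 0.254 RPKM.

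A few replication and cell cycle genes rose. All 42 listed replication genes were tested, 2 rose, none fell and 10 were more than 2-fold higher on both days. Their median log2 fold change was 0.70. Over all genes tested 1.52% rose, 0.659% fell, 6.79% were more than 2-fold higher and 9.97% more than 2-fold lower on both days. The groups did not overlap, with DKO higher, for 26 of the 42, where 31.4% of all genes tested had that order. Mcm2, a subunit of the replicative helicase, had 129 and 104 RPKM in DKO and 47.2 and 32.3 RPKM in WT (log2 fold change 1.65, SE 0.20, adjusted p = 0.0472). Rrm2, the regulated subunit of ribonucleotide reductase, had 49.1 and 33.4 RPKM in DKO and 21.0 and 13.3 RPKM in WT (log2 fold change 1.36, SE 0.18, adjusted p = 0.0491). For both genes the values on day 12 were below those on day 8 in each genotype, and DKO day 12 was still above WT day 8. Among 17 proliferation genes 1 rose, none fell, 3 were more than 2-fold higher and 2 more than 2-fold lower on both days. The rise was Ccnd1, the cyclin of G1 phase and a Wnt target, with 29.7 and 26.0 RPKM in DKO and 11.5 and 7.35 RPKM in WT (log2 fold change 1.68, SE 0.19, adjusted p = 0.0469). Ccnb1, the mitotic cyclin B1, had 21.2 and 19.5 RPKM in DKO and 12.0 and 6.98 RPKM in WT (log2 fold change 1.24, SE 0.21, adjusted p = 0.0575). The lower genes were Ccnd2 and Ccnd3, other D-type cyclins, and Ccnd2 had 4.49 and 14.5 RPKM in DKO and 14.2 and 30.7 RPKM in WT (log2 fold change -1.29, SE 0.28, adjusted p = 0.0736). Ccnd1 was also the 1 rise among 16 tested of 17 Wnt targets, of which 3 were more than 2-fold lower on both days. Wnt6, a ligand of that list, had 1.58 and 3.37 RPKM in DKO and 6.52 and 17.1 RPKM in WT (log2 fold change -2.13, SE 0.39, adjusted p = 0.0607).

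Several chromatin factors were higher in DKO. Of 30 heterochromatin and silencing factors, all tested, 4 rose, none fell and 9 were more than 2-fold higher on both days. Dnmt3l, the catalytically inactive cofactor of de novo DNA methyltransferases, had 38.4 and 20.8 RPKM in DKO and 2.26 and 1.11 RPKM in WT (log2 fold change 4.24, SE 0.30, adjusted p = 0.0399). Tet1, which oxidises methylated cytosine, had 22.8 and 10.0 RPKM in DKO and 3.6 and 1.84 RPKM in WT (log2 fold change 2.64, SE 0.23, adjusted p = 0.043). Zfp57, a zinc finger protein that keeps methylation at imprinting control regions, had 81.5 and 44.7 RPKM in DKO and 18.0 and 7.84 RPKM in WT (log2 fold change 2.43, SE 0.32, adjusted p = 0.0491). Hells, a chromatin remodeller needed for DNA methylation, was the fourth (log2 fold change 1.97, SE 0.24, adjusted p = 0.0472). These genes are also expressed in ES cells: WT ES cells had 21.3 and 24.0 RPKM of Dnmt3l, 31.7 and 31.9 RPKM of Tet1 and 119 and 117 RPKM of Zfp57. Pluripotency markers moved with this list and with the replication genes across the same libraries, and their part in these values was not tested. The H3K9 methyltransferase gene Suv39h2, whose product acts upstream of SUV420H enzymes at heterochromatin, had 7.14 and 6.12 RPKM in DKO and 3.79 and 2.79 RPKM in WT (log2 fold change 1.11, SE 0.20, adjusted p = 0.0607). All 24 listed Polycomb genes were tested, 1 rose, 1 fell, 4 were more than 2-fold higher and 2 more than 2-fold lower on both days. The rise was Phc1, a subunit of the Polycomb repressive complex that ubiquitinates histone H2A (log2 fold change 2.05, SE 0.21, adjusted p = 0.0432). Of 28 architecture genes 1 rose, Hmga1, a DNA-bending protein of undifferentiated cells with near-identical copies (log2 fold change 1.95, SE 0.20, adjusted p = 0.0432). Lmna, the A-type lamin that increases as cells differentiate, had 5.79 and 13.8 RPKM in DKO and 24.4 and 38.5 RPKM in WT (log2 fold change -1.70, SE 0.26, adjusted p = 0.0544).

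Germline genes were low in both genotypes. Of 23 listed genes 14 were tested, none was called and 6 were more than 2-fold higher in DKO on both days. Ddx4, the germ cell helicase VASA, had 3.10 and 3.09 RPKM in DKO and 0.649 and 0.323 RPKM in WT (log2 fold change 2.85, SE 0.42, adjusted p = 0.0533). Prdm1, the BLIMP1 repressor of germ cell specification, had 3.50 and 3.91 RPKM in DKO and 1.53 and 1.13 RPKM in WT (log2 fold change 1.59, SE 0.26, adjusted p = 0.0566). Of 24 genes of the 2-cell embryo 5 were tested and none was past 2-fold on both days.

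Among stress genes, 2 known targets of ATF4, the factor of the amino acid response, rose. Chac1, a glutathione-degrading enzyme induced by ATF4, had 57.6 and 56.9 RPKM in DKO and 2.95 and 3.71 RPKM in WT (log2 fold change 4.20, SE 0.27, adjusted p = 0.0357), with 6.27 and 7.95 RPKM in KO. Asns, asparagine synthetase, had 77.1 and 85.6 RPKM in DKO and 20.1 and 13.1 RPKM in WT (log2 fold change 2.39, SE 0.27, adjusted p = 0.0464). The DKO values were level between days and all above WT. Trib3, another ATF4 target, had 36.0 and 56.4 RPKM in DKO and 12.0 and 21.0 RPKM in WT (log2 fold change 1.58, SE 0.23, adjusted p = 0.0533). Jun, an immediate early gene, had 10.8 and 38.6 RPKM in DKO and 64.8 and 95.7 RPKM in WT (log2 fold change -1.84, SE 0.31, adjusted p = 0.0582). Egr1, another immediate early gene, had 5.25 and 8.75 RPKM in DKO and 18.4 and 22.9 RPKM in WT (log2 fold change -1.51, SE 0.24, adjusted p = 0.0562). Chac1 and Asns were the 2 calls among 23 tested genes of 25, and 5 were more than 2-fold higher and 2 lower on both days. Of 26 p53 targets, all tested, none was called and 4 were more than 2-fold higher on both days. Pmaip1, the p53-induced death gene NOXA, had 49.5 and 27.9 RPKM in DKO and 6.21 and 6.60 RPKM in WT (log2 fold change 2.60, SE 0.37, adjusted p = 0.0523). Gadd45a, a growth arrest gene, had 57.7 and 41.5 RPKM in DKO and 9.17 and 11.9 RPKM in WT (log2 fold change 2.30, SE 0.35, adjusted p = 0.0548). Cdkn1a, the p21 inhibitor that is the standard p53 target, had 32.5 and 118 RPKM in DKO and 48.6 and 94.9 RPKM in WT (log2 fold change -0.02, SE 0.31, adjusted p = 0.974). None of the 17 tested hypoxia and glycolysis genes was past 2-fold on both days, with Ankrd37 of smallest p at 9.41 and 3.64 RPKM in DKO and 16.3 and 29.7 RPKM in WT (log2 fold change -1.76, SE 0.68, adjusted p = 0.169).

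Some interferon response genes were lower. Of 25 listed genes 20 were tested, 2 fell (0.659% of all genes) and none rose. On both days 9 were more than 2-fold lower (9.97% of all genes) and 1 more than 2-fold higher (6.79% of all genes). B2m, the light chain of MHC class I, had 6.81 and 17.2 RPKM in DKO and 26.7 and 64.2 RPKM in WT (log2 fold change -1.85, SE 0.22, adjusted p = 0.0472). Ifit1, an interferon-induced RNA-binding protein, had 0.0251 and 0.0707 RPKM in DKO and 1.26 and 1.24 RPKM in WT (log2 fold change -4.67, SE 0.64, adjusted p = 0.0503). Isg15, a ubiquitin-like protein induced by interferon, had 0.0875 and 0.0926 RPKM in DKO and 2.77 and 6.60 RPKM in WT (log2 fold change -5.50, SE 0.74, adjusted p = 0.0496). Isg15 had 3 reads in each DKO library. The groups did not overlap for any of the 3 genes. In ES cells B2m had the opposite order, with 45.2 and 35.8 RPKM in DKO and 11.3 and 9.20 RPKM in WT (log2 fold change 1.98, SE 0.16, adjusted p = 4.9e-07), so DKO ES cells exceeded DKO embryoid bodies. Ifitm1, an interferon-induced membrane protein also made by early embryonic cells, was the 1 member more than 2-fold higher on both days, with 39.8 and 24.9 RPKM in DKO and 21.2 and 8.87 RPKM in WT (log2 fold change 1.29, SE 0.22, adjusted p = 0.0582).

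Other genes among the largest rises have no place in these lists. Rpl29, a ribosomal protein gene with near-identical copies, had 507 and 400.4 RPKM in DKO and 3.67 and 4.12 RPKM in WT (log2 fold change 6.94, SE 0.34, adjusted p = 0.0357), and its reads cannot be assigned with certainty. Ribosomal, histone, small RNA and predicted (Gm) genes were left out of the 12 largest rises and falls for that reason. Trh, which encodes the thyrotropin-releasing hormone precursor, had 450.5 and 293 RPKM in DKO and 11.9 and 9.46 RPKM in WT (log2 fold change 5.16, SE 0.34, adjusted p = 0.0357). Calca, the calcitonin gene, had 8.61 and 2.09 RPKM in DKO and 0.314 and 0.0452 RPKM in WT (log2 fold change 5.13, SE 0.49, adjusted p = 0.0432). Jph3, a junctophilin of neurons, had 8.56 and 6.63 RPKM in DKO and 0.183 and 0.207 RPKM in WT (log2 fold change 5.31, SE 0.51, adjusted p = 0.0432). Calca and Jph3 were under 1 RPKM in both WT libraries, and Trh was not. The gene 2900011O08Rik, now named Bmerb1, rose (log2 fold change 5.38, SE 0.51, adjusted p = 0.0432), as did the zinc finger gene Zfp819 (log2 fold change 5.07, SE 0.37, adjusted p = 0.0406). Among the 12 largest falls, 3830417A13Rik on the X chromosome had no reads in DKO and 3.09 and 26.7 RPKM in WT, at least 342-fold lower (edgeR adjusted p = 0.0464). Epn3, an endocytic epsin, had 0.0284 and 0.0360 RPKM in DKO and 1.37 and 12.0 RPKM in WT (log2 fold change -7.08, SE 0.93, adjusted p = 0.0491).

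In ES cells DKO differed from WT in 7692 of 12044 genes tested (63.9%), with 32.2% higher and 31.7% lower. Of the 196 genes that rose in embryoid bodies 193 were tested there, and 66 were higher in DKO ES cells, 77 lower and 50 not called. These 66 are 34.2% of the 193, against 32.2% of all genes tested, and 1.7% of the 3880 genes higher in DKO ES cells. Of the 85 that fell 50 were tested in ES cells, and 22 were lower there, 16 higher and 12 not called. These 22 are 44.0% of the tested falls, against 31.7% of all genes tested, and 0.58% of the 3812 genes lower in DKO ES cells. The median ES log2 fold change of the genes that rose was -0.07. A test of the difference between the 2 states over all 12 libraries called 5638 of 13429 genes (42%), and the effect was further in the same direction in embryoid bodies for 182 of the 196 rises and 69 of the 85 falls. These genes were chosen for their embryoid body difference, so the last counts are a description.

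Pou5f1 had 570.3 and 497 RPKM in DKO ES cells and 684 and 680.1 RPKM in WT ES cells, so both genotypes held it at a high level before differentiation. The embryoid body effect minus the ES cell effect of Pou5f1 was 4.34 on the log2 scale (edgeR adjusted p = 4.9e-05). Lefty1 was lower in DKO ES cells, with 45.9 and 34.1 RPKM against 120.3 and 124 RPKM in WT (log2 fold change -1.61, SE 0.13, adjusted p = 6.5e-07). Col1a1 had 0.0820 and 0.118 RPKM in DKO ES cells and 0.190 and 0.156 RPKM in WT ES cells and was not tested there; the embryoid body effect minus the ES cell effect was -9.60, SE 1.29, adjusted p = 9.7e-04. Olig2 was the other kind of case: it had 15.0 and 10.9 RPKM in DKO ES cells and 0.0357 and 0.0776 RPKM in WT ES cells (log2 fold change 7.80, SE 0.27, adjusted p = 1.6e-09), a fold like that of embryoid bodies.

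**Figure D5:**
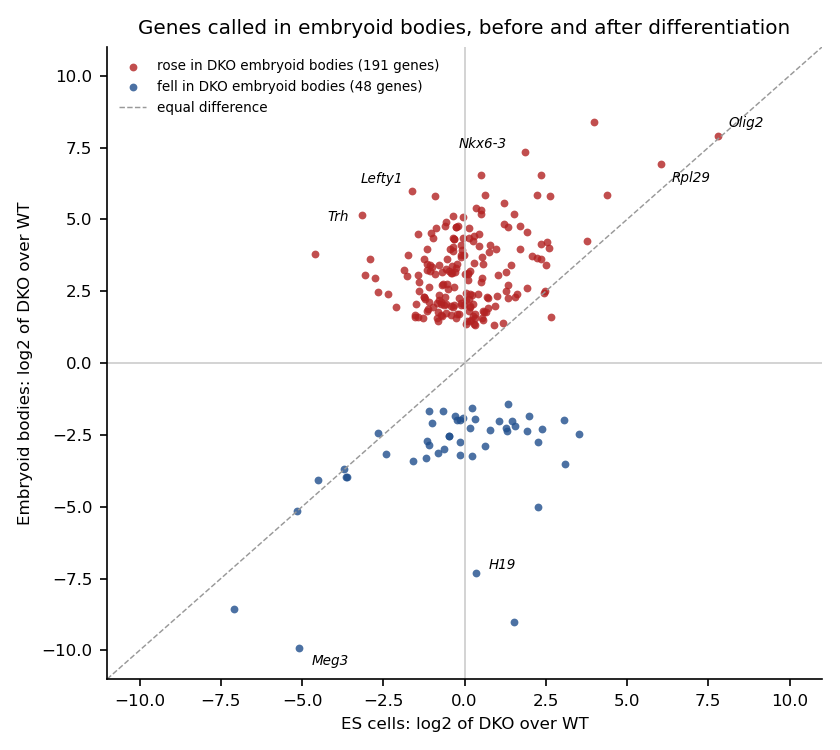
Log2 fold change of DKO against WT in ES cells (horizontal axis) and in embryoid bodies (vertical axis) for 191 genes that rose (red) and 48 that fell (blue) in embryoid bodies, were tested in both states and had reads in every group; the dashed line marks equal differences. Over all called genes tested in ES cells, plotted or not, the median ES cell log2 fold change was -0.07 for the 193 that rose. For the 50 that fell it was -0.14. Olig2 lies high in both states.

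Set against KO embryoid bodies, DKO embryoid bodies gave almost no calls. Of 12896 genes 1 was called (0.00775%), and 2161 had an unadjusted p under 0.05. The gene was Pnma5, a paraneoplastic antigen gene on the X chromosome, with 0.251 and 0.122 RPKM in DKO and 39.2 and 18.0 RPKM in KO (log2 fold change -7.15, SE 0.27, adjusted p = 0.0492). WT embryoid bodies had 0.701 and 0.285 RPKM, so the KO libraries stood apart from both other genotypes. Sox1, Chac1 and Acta2, whose DKO and KO libraries did not overlap, were not called, with adjusted p-values of 0.158, 0.158 and 0.231 for DKO against KO. With DESeq2 1176 genes were called in that comparison, and with edgeR 251 were called without WT day 8, 237 without WT day 12 and 0 without any 1 KO or DKO library. DKO against KO and DKO against WT share the DKO libraries, so their results are not independent.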

How the data were processed

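RNA was measured in 12 mouse libraries: DKO, KO and WT ES cells with 2 libraries each, and DKO, KO and WT embryoid bodies with 1 library at day 8 and 1 at day 12. Per the labels' protocols, RNA was extracted with RNeasy or miRNeasy kits and libraries were made with NEBNext Ultra II. Alignment used Bowtie2 and the genome build mm9, per the submitters' processing notes; the sources used here do not name the read counter. The authors deposited whole read counts per gene model, not normalized. The authors also deposited RPKM values, scaled for transcript length and for the reads of the whole library. Library totals implied by the RPKM exceed the reads in genes, so ratios of RPKM and of scaled counts can differ slightly.

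Of 29257 gene models, 1 per symbol was kept, the longest, giving 22878 symbols. Only genes reaching 1 RPKM in 2 or more of the libraries fitted entered the test, made with edgeR 4.0.16 (TMM scaling, quasi-likelihood F-test, R 4.3.3), with genotype and day as terms and 2 residual degrees of freedom over the 6 embryoid body libraries. Per-day ratios used scaled CPM with 0.5 added. Alternatives used DESeq2 1.42.0 and limma 3.58.1, and tables were handled with Python 3.11.15 and pandas 2.3.3. The statistics were tested on simulated data. Day 12 minus day 8 correlated between genotypes with r of 0.185 for DKO and WT, 0.469 for DKO and KO and -0.051 for KO and WT, and the labels do not say that a day marks a shared culture. The 34 gene lists, with 770 symbols, and the comparison were chosen with earlier results of these data known. Named genes were the targeted genes, the 12 largest called rises and 12 largest called falls with at least 5 RPKM in DKO or WT embryoid bodies and no overlap, leaving out symbols starting Rpl, Rps, Hist, Gm, Mir or Snor for uncertain read assignment, and from every list the members of smallest p, at most 4; other list members were chosen after their values were seen. Results of a few genes are not reported here. Intervals and floors of 3 counts cover counting error only.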

Additional observations from a re-analysis of the deposited data

Results flagged for a closer look

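The leading genes here are the 2 targeted genes and the largest called rises and falls, 25 genes in all, of which 23 had reads in DKO and WT libraries of both states. By edgeR's test of the difference over all 12 libraries, the DKO effect differed between embryoid bodies and ES cells for 19 of these 23, where 42% of all genes tested were called. The rises and falls were picked for large embryoid body folds, which favours a large difference, so the count is a description. The X-linked 3830417A13Rik also passed the test (adjusted p = 0.00168), but it had no reads in DKO embryoid bodies or WT ES cells, so no size is given. Values are the log2 effect in embryoid bodies minus that in ES cells. Among the rises with reads in each group, the difference was 8.28 for the hormone gene Trh and, for the Nodal inhibitors, 7.58 for Lefty1 and 6.70 for Lefty2. It was 6.09 for Pou4f2, 5.44 for Calca, 5.16 for Nr0b1 and 5.04 for Zfp819. It was 4.95 for 2900011O08Rik, 4.79 for Jph3 and 4.26 for Olig1, and 1.45 for Sox1. Among the falls with reads in each group, Twist2 differed by -10.65, Col6a1 by -9.66 and Col1a1 by -9.60. Epn3 differed by -8.35, H19 by -7.71, Zim1 by -6.20, Col6a2 by -5.67 and Meg3 by -4.93.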

How the results depend on the processing

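The count of 281 genes called in DKO against WT embryoid bodies rests on 2 residual degrees of freedom. It was 3139 with DESeq2, 534 with at least 1 RPKM in 4 libraries, 714 and 911 with limma on log2 RPKM plus 1 or 0.1, 5089 with all 12 libraries and 0 with the 4 DKO and WT libraries alone, where 3188 genes had an unadjusted p under 0.05. Without the day term, that is with no replicate block, it was 4. Leaving out 1 library gave 0 to 1816. The other settings gave 298 to 396. DKO against KO was 1176 with DESeq2, 0 with no replicate block and 0 to 251 with 1 library left out, where 902 to 2937 genes had an unadjusted p under 0.05. In ES cells the count stayed between 5930 and 9098 in every setting, and the replicate block gave 7437. The difference between the states was called for 3612 to 6764 genes with 1 library left out and for 4810 with the replicate block. ES replicate numbers did not deviate together (r = -0.013, -0.053 and -0.085) and share only a number. Genes past 2-fold on both days numbered 1825 to 2283. The 281 genes kept their sign wherever tested, which their 2-fold difference on both days makes likely and which does not show stability. Where counts moved, the cause was not tested. With 1 library per genotype and day, differences specific to 1 day have no test.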

Other observations

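Genes of one-carbon metabolism and of nucleotide and amino acid synthesis, a list put together after the values were seen, were higher in DKO embryoid bodies. All 36 were tested, 14 rose and none fell (1.52% of all genes tested rose), and the median log2 fold change was 1.03. Shmt2, the mitochondrial enzyme that takes one-carbon units from serine, had 94.1 and 88.3 RPKM in DKO and 22.9 and 18.0 RPKM in WT (log2 fold change 2.25, SE 0.20, adjusted p = 0.043). Mthfd1, which interconverts folate carriers, had 17.9 and 16.5 RPKM in DKO and 4.62 and 3.02 RPKM in WT (log2 fold change 2.30, SE 0.24, adjusted p = 0.0432). Cth, which makes cysteine, had 9.84 and 13.1 RPKM in DKO and 1.08 and 0.537 RPKM in WT (log2 fold change 4.01, SE 0.46, adjusted p = 0.0469). Bcat1, a transaminase of branched-chain amino acids, had 18.3 and 15.6 RPKM in DKO and 2.78 and 1.64 RPKM in WT (log2 fold change 3.08, SE 0.20, adjusted p = 0.0357). None of these genes overlapped between the groups. Summed over the list, DKO embryoid bodies held 887.6 and 864.4 RPKM, WT embryoid bodies 448.9 and 347.5 RPKM, and the ES cell libraries of both genotypes 1033 to 1147 RPKM. Pluripotency markers moved with the list, and their part in it was not tested.

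A list of FGF ligands, receptors and feedback genes, also chosen after the values were seen, held 4 rises and no fall among 22 tested of 24, with 10 more than 2-fold higher and 2 more than 2-fold lower on both days. Over all genes tested 1.52% rose, 6.79% were higher and 9.97% lower on both days. Fgf17 had 14.9 and 14.8 RPKM in DKO and 1.74 and 0.720 RPKM in WT (log2 fold change 3.79, SE 0.39, adjusted p = 0.0432). Spry2, a feedback inhibitor of receptor tyrosine kinases, had 106 and 98.7 RPKM in DKO and 27.1 and 27.4 RPKM in WT (log2 fold change 2.0, SE 0.21, adjusted p = 0.0432). Etv5, an ETS factor induced by FGF, had 56.3 and 40.7 RPKM in DKO and 14.1 and 8.30 RPKM in WT (log2 fold change 2.23, SE 0.19, adjusted p = 0.043). Fgf4 was the fourth. The 2 lower genes were receptors: Fgfr2 had 0.916 and 2.50 RPKM in DKO and 8.91 and 8.58 RPKM in WT (log2 fold change -2.42, SE 0.37, adjusted p = 0.0548). Fgfr3 had 0.582 and 1.80 RPKM in DKO and 16.9 and 10.6 RPKM in WT (log2 fold change -3.84, SE 0.83, adjusted p = 0.0736), and the groups overlapped for neither receptor. A list of collagen genes was also put together after the values were seen. Of its 43 genes 21 were tested, 4 fell and none rose (0.659% of all genes tested fell). On both days 15 were more than 2-fold lower. The falls include Col1a1, Col6a1 and Col6a2, already given among the 12 largest falls, so the count is a description. Some members passed the filter only through WT. Col8a2 had 0.316 and 0.226 RPKM in DKO, 0.306 and 0.420 RPKM in KO and 3.96 and 3.10 RPKM in WT. The collagen sum was 89.92 and 295.4 RPKM in DKO embryoid bodies and 766.7 and 1480 RPKM in WT embryoid bodies. The higher day 12 sums rested on 2 basement membrane genes. Col4a1 had 10.2 and 136 RPKM in DKO and 69.3 and 572 RPKM in WT. Col4a2 had 8.71 and 110 RPKM in DKO and 65.7 and 481 RPKM in WT. Other collagens went either way between the days in WT: Col1a1 had 167 and 114 RPKM and Col6a1 10.7 and 28.9 RPKM.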
